A study of Mus musculus with 15 samples.

Results

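The nuclear genes for respiratory complexes III and IV and for ATP synthase were followed in mouse hearts after polymicrobial sepsis. Members were taken by name: every gene whose symbol starts with Uqcr, with Atp5 or with Cox and a digit from 4 to 8, and Cyc1, on probe sets that the platform annotation pairs with 1 gene in both deposited tables. The rule found 42 of 12393 genes, of which 9 belong to complex III, 16 to complex IV and 17 to ATP synthase. They are measured by 76 probe sets, with 1 probe set for 20 genes and 2 to 6 for the other 22, and a gene's value is the mean over its probe sets.

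Complex III passes electrons from ubiquinol to cytochrome c, complex IV passes them on to oxygen, and both pump protons out of the mitochondrial matrix. ATP synthase lets the protons return and makes ATP, which the beating heart uses without pause. The catalytic core of complex IV, cytochrome b of complex III and a few ATP synthase subunits are encoded in mitochondrial DNA. Nuclear genes, most of those described here among them, supply the other subunits, several of them as tissue isoforms. The name rule does not take in every nuclear gene of these complexes.

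Whole hearts were taken 48 hours after surgery, and total RNA was labelled with biotin and hybridised to 15 short oligonucleotide arrays, 3 in each of 5 groups. Wild-type C57/BL6 mice had either sham surgery, in which the caecum was exposed and put back, or caecal ligation and perforation (CLP), which releases gut bacteria into the abdomen. The wild-type CLP hearts carry 1 of 2 further names, Min Dep or Max Dep, whose meaning the labels do not give. Congenic B6.129P2-Nos2tm1Lau/J mice, which carry a targeted allele of the inducible nitric oxide synthase gene Nos2 (iNOS KO), had sham surgery or CLP. All mice received buprenorphine and saline, and were anaesthetised with ketamine and xylazine for a carotid pressure recording before the heart was removed. Age and sex are not given in the labels, and whole hearts mix cardiomyocytes with all other cardiac cells. The labels say only that the arrays are separate samples, so p-values measure the spread between these samples, and with 3 arrays a group each value is imprecise.

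The wild-type values are scores in standardised units: each probe set was scaled to the same spread over the 9 arrays, so a difference tells how cleanly groups separate and not how large the fold is. Averaging probe sets that disagree narrows a gene's spread. Differences of genes with several probe sets are therefore not on quite the same scale as those of genes with 1. The knockout values are scores that behave as log differences of unstated base around a centre of 0 per probe set. No array gives an absolute level, so heart markers could not be checked by level, genes cannot be ranked by abundance, and wild-type values cannot be set against knockout values. Nos2 lay between -0.91 and 1.40 in wild-type sham, -0.02 and 1.78 in Min Dep and -0.98 and -0.31 in Max Dep hearts, and between -1.43 and 1.06 in the knockout table, which checks no label because each table has its own zero.

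Of the 15 arrays, 3 stand apart. Wild-type sham replicate 1 has Xist at 2.64 and Eif2s3y at -2.48, against at most -0.17 and at least -0.68 in the other 8 wild-type arrays, and knockout sham replicate 2 has Xist at -6.36 and Eif2s3y at 5.76. Both genes are sex-linked, and these arrays stand apart from their tables in opposite directions. Sex may therefore be mixed within each sham group and may also differ between the tables. In the knockout CLP group, 3 times replicate 1 minus replicates 2 and 3 takes a single value in 4445 probe sets (19.6%, within 0.0005), as it would if the deposited column were the mean of 3 sets of values. The next commonest value is shared by 49. The column was left out of the knockout test.

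The first question was how septic wild-type hearts differed from sham hearts. Genes for the large subunits of complex III and for parts of the ATP synthase membrane sector had the lowest values in septic hearts relative to sham, and the complex IV genes lay on both sides. No gene of the 42 passed an adjusted p of 0.05 (limma, unmoderated statistics, Benjamini-Hochberg over all genes), where 0.718% of all genes did, and with eBayes moderation 0 of all genes did. At an unadjusted p under 0.05, 1 member was higher and 8 were lower after CLP, which is 21.4% of the members against 18.6% of all genes and so near the background. By direction, 8 of 42 lower stands against 9.38% of all genes and 1 of 42 higher against 9.23%. The median difference was -0.30 over the 42 genes and 0.02 over all genes. Left-out arrays moved it between -0.37 (without Max Dep replicate 1) and -0.11 (without sham replicate 1), and to -0.19 without Min Dep replicate 2 or -0.20 without Max Dep replicate 3.

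**Figure D1:**
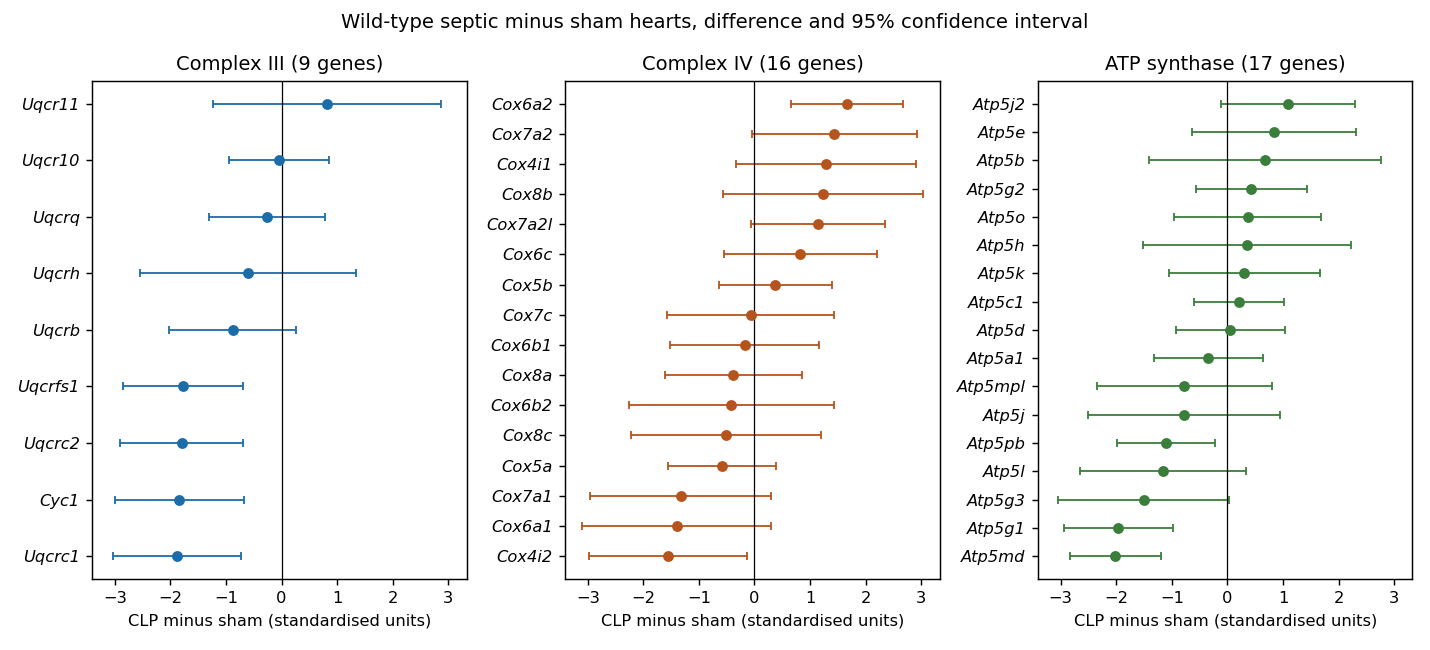
Difference between the 6 septic and 3 sham wild-type hearts for each of the 42 genes, in standardised units, with the 95% confidence interval of the unadjusted fit, by complex. The 4 lowest genes of complex III lie between -1.88 and -1.77, complex IV runs from -1.55 to 1.66, and Atp5md is lowest of all at -2.02.

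In complex III the genes for the subunits of the catalytic and core part lay lower in every septic heart than in any sham heart. Uqcrc1 encodes core protein 1, and its values were 0.54, 1.25 and 2.02 in sham hearts, -1.43, -0.06 and -0.14 in Min Dep hearts and -0.17, -0.98 and -0.87 in Max Dep hearts. All 6 septic arrays were below the lowest sham array, and the difference was -1.88 ± 0.47 (SE; adjusted p = 0.119). Uqcrc2, core protein 2, had sham values of 0.38, 1.53 and 1.78, Min Dep values of -1.57, -0.80 and -0.18 and Max Dep values of 0.17, -0.36 and -0.71. The highest septic array lay just under the lowest sham array, and the difference was -1.80 ± 0.46 (adjusted p = 0.121). Its 2 probe sets gave -1.83 and -1.77.

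Cyc1, cytochrome c1, hands electrons to cytochrome c, and its values were 0.77, 0.87 and 2.05 in sham, -0.88, 0.42 and -0.90 in Min Dep and -0.26, -0.72 and -1.31 in Max Dep hearts. Min Dep replicate 2 came nearest to the sham hearts without reaching them, and the difference was -1.84 ± 0.48 (adjusted p = 0.126). Uqcrfs1 encodes the Rieske iron-sulphur protein, which takes electrons from ubiquinol. Its sham values lay close together at 1.14, 1.17 and 1.32, with -1.90, 0.13 and -0.69 in Min Dep and -0.23, -0.67 and -0.03 in Max Dep hearts. The groups did not overlap, and the difference was -1.77 ± 0.44 (adjusted p = 0.118). These 4 genes were the only members of complex III at an unadjusted p under 0.05, and they were singled out after their values were seen. Without sham replicate 1 their differences were -2.24, -2.23, -2.07 and -1.81 in the order described, with adjusted p from 0.131 to 0.240.

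The other 5 genes of complex III encode small accessory subunits, and as means over probe sets septic and sham hearts overlapped in each. Their differences were -0.88 ± 0.47 for Uqcrb, -0.60 ± 0.79 for Uqcrh, the hinge protein, -0.27 ± 0.43 for Uqcrq, -0.04 ± 0.37 for Uqcr10 and 0.82 ± 0.84 for Uqcr11. Uqcrb values were 0.72, 1.06 and -0.04 in sham, -0.45, 0.06 and -0.75 in Min Dep and -0.88, -0.61 and 0.81 in Max Dep hearts, so Max Dep replicate 3 stood as high as a sham heart. Of its 2 probe sets, 1 did not overlap, with 1.70, 1.40 and 0.31 in sham and -1.77 to -0.01 in septic hearts. The other read -0.27, 0.72 and -0.39 in sham and -1.25 to 1.63 in septic hearts. Over the 9 genes the median difference was -0.88, and 8 lay below 0 and 1 above, against 49.2% and 50.8% of all genes. It was between -1.49 (without sham replicate 2) and -0.72 (without Max Dep replicate 1) with 1 array left out. Of the 9, 4 did not overlap between septic and sham hearts with the septic side lower, where 6.11% of all genes did so.

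**Figure D2:**
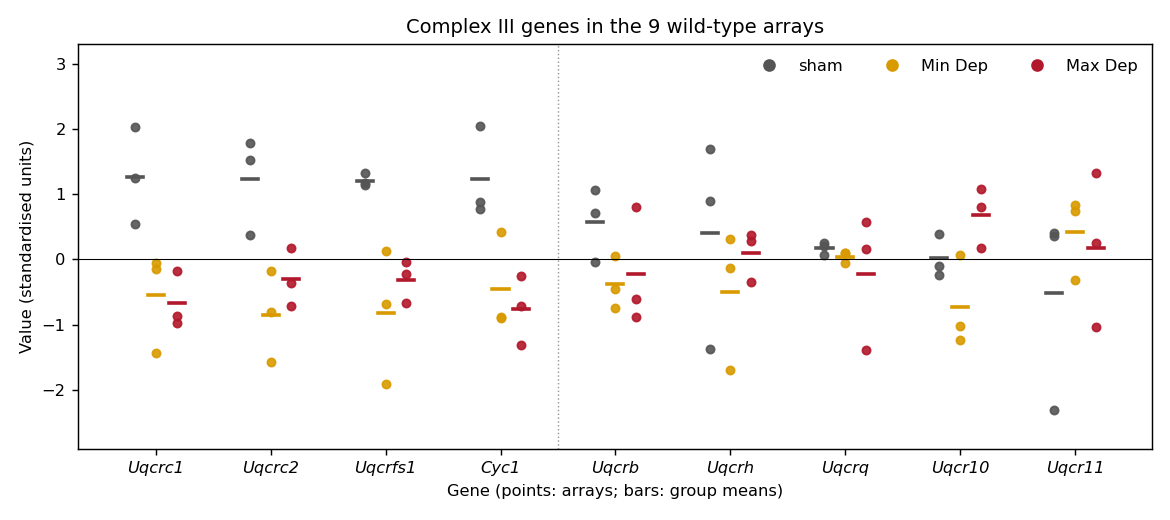
Values of the 9 complex III genes in each wild-type array (points) with the group means (bars), in standardised units. The 4 genes left of the dotted line have all septic arrays below all sham arrays, and the 5 small-subunit genes on the right overlap as means over probe sets. Of the 2 Uqcrb probe sets, 1 taken alone does not overlap.

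The 250 bases before the transcription start of Uqcrfs1 are printed because the gene has the smallest p of complex III: chr13:30545317-30545566, minus strand, RefSeq GRCm38.p6, upstream of the annotated start and written 5′ to 3′. None of the 6 motifs searched lies in it.
Uqcrfs1: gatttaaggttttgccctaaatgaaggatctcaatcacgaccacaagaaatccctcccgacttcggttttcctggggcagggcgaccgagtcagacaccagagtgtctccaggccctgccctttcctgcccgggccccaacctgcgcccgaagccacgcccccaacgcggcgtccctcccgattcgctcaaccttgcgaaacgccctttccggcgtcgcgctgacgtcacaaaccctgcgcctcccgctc

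Complex IV showed no common direction: 9 of its 16 genes lay below and 7 above 0, with a median difference of -0.12. Cox6a2, the isoform of subunit VIa made in heart and skeletal muscle, was the member that lay highest after CLP. Its sham values were -0.88, -1.49 and -0.96, its Min Dep values 1.10, -0.30 and 1.45 and its Max Dep values 0.35, 0.57 and 0.13. All 6 septic arrays were above all sham arrays, where 5.89% of all genes were higher without overlap, and the difference was 1.66 ± 0.41 (adjusted p = 0.118). Without Min Dep replicate 2, the lowest septic array, it was 1.92 with an adjusted p of 0.0358. Over its 13 alternative settings the adjusted p ran from 0.0358 to 0.335.

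Cox6a1, the isoform of the same subunit made in most tissues, went the other way. It read -0.33, 2.13 and 0.95 in sham, -0.67, -0.34 and -1.60 in Min Dep and 0.07, -1.13 and 0.79 in Max Dep hearts, a difference of -1.40 ± 0.69 (adjusted p = 0.353). The groups overlapped through sham replicate 1, and both probe sets of the gene gave -1.40. The pair for subunit VIIa also had opposite signs, but with the muscle isoform lower. Cox7a1, made in heart and skeletal muscle, had sham values of 0.71, 1.20 and 0.88, Min Dep values of -1.73, 0.25 and 0.51 and Max Dep values of -0.19, 0.41 and -1.63. Its septic arrays all lay below its sham arrays, at -1.33 ± 0.67 (adjusted p = 0.358). Cox7a2, the widely expressed isoform, read -0.34, -1.19 and -1.21 in sham, -0.48, 0.16 and 1.29 in Min Dep and 1.26, 1.42 and -0.52 in Max Dep hearts, and overlapped, at 1.43 ± 0.61 (adjusted p = 0.280). The muscle isoforms therefore stood on opposite sides of 0 in these pairs, and the difference between the members of a pair was not tested.

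In the pair for subunit IV, Cox4i1 is the common isoform and Cox4i2 the one best known from lung and from low oxygen. Cox4i2 values were 0.48, 2.02 and 0.57 in sham, -0.49, 0.84 and -0.99 in Min Dep and -1.41, -0.94 and -0.19 in Max Dep hearts, with only Min Dep replicate 2 inside the sham range (-1.55 ± 0.58, adjusted p = 0.237). Cox4i1 values were -1.03, -0.64 and -0.74 in sham, -1.22, -0.73 and 1.74 in Min Dep and 1.01, 0.78 and 1.33 in Max Dep hearts. Its 3 Max Dep hearts stood above all sham hearts while 2 Min Dep hearts did not, and the difference was 1.29 ± 0.66 (adjusted p = 0.368). For subunit VIII, the muscle isoform Cox8b gave 1.23 ± 0.73 and the common isoform Cox8a -0.38 ± 0.50. Cox8b read -2.49, 0.08 and 0.05 in sham, -0.40, 0.96 and 1.5 in Min Dep and 0.55, 0.15 and -0.07 in Max Dep hearts, and its difference was 0.38 without sham replicate 1, which alone was far below the rest. Cox8a ranged from -0.03 to 0.54 in sham and from -1.64 to 0.63 in septic hearts.

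For subunit VIb, Cox6b1 is common and Cox6b2 is best known from testis, and neither separated the groups (-0.18 ± 0.55 and -0.41 ± 0.76). Cox6b1 ranged from -0.06 to 0.52 in sham and from -0.95 to 1.24 in septic hearts, and Cox6b2 from -0.35 to 0.72 and from -1.5 to 1.33. The sign of each turned when single arrays were left out. The remaining genes of complex IV overlapped too: Cox7a2l, a supercomplex factor, at 1.14 ± 0.49, Cox6c at 0.82 ± 0.56, Cox5b at 0.38 ± 0.42, Cox7c at -0.07 ± 0.62, the testis isoform gene Cox8c at -0.51 ± 0.70 and Cox5a at -0.59 ± 0.40.

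**Figure D3:**
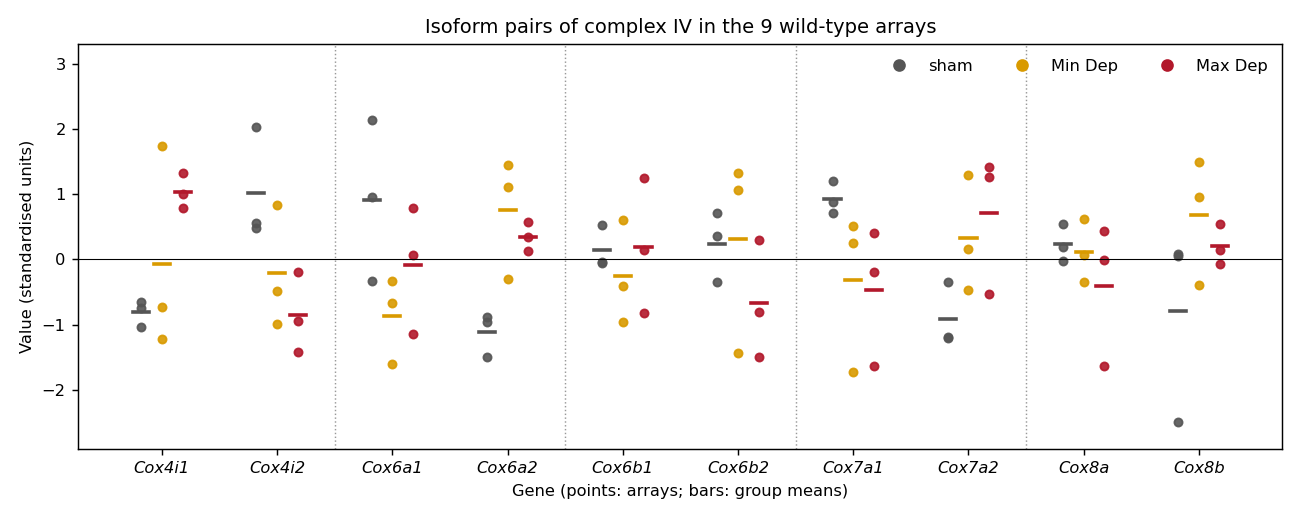
Values of the 5 isoform pairs of complex IV in each wild-type array (points) with group means (bars), in standardised units. Cox6a2 is higher in all septic arrays and Cox7a1 lower in all of them, and the other 8 genes overlap between septic and sham hearts.

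Promoters are shown for Cox7a1, the complex IV gene that lay lower without overlap after CLP in wild-type hearts, and for Cox6a1, which had the smallest p of all members in knockout hearts. Cox7a1 is at chr7:30183921-30184170, plus strand, and Cox6a1 at chr5:115348959-115349208, minus strand, both RefSeq GRCm38.p6, 250 bases upstream of the start, 5′ to 3′. Capitals in Cox6a1 mark, in order, the motif of nuclear respiratory factor 1 (NRF1; GCATGCGC with GC before it, -162 to -153 from the start), a pair of SP1 motifs (GGGCGG on the other strand) and an ETS motif (CCGGAAG on the other strand, -16 to -10). Cox7a1 holds none of the 6 motifs searched.
Cox7a1: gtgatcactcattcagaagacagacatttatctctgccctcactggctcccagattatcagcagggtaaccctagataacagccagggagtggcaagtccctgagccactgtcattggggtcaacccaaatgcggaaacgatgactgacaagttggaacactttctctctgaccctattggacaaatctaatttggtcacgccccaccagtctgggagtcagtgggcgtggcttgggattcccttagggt
Cox6a1: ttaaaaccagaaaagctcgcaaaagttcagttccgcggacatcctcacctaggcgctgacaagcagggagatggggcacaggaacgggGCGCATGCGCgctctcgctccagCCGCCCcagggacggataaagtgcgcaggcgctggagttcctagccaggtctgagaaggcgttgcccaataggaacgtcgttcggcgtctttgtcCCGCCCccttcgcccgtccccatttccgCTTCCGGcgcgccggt

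ATP synthase had 8 genes below and 9 above 0, with a median difference of 0.05, and its lowest genes encode parts of the membrane sector. Atp5md, also called DAPIT, is a small subunit needed for dimers of the enzyme, and had the smallest p of all members (rank 203 of 12393 genes). Its values were 1.30, 1.30 and 1.44 in sham, -1.10, -0.05 and -0.79 in Min Dep and -0.01, -0.87 and -1.19 in Max Dep hearts. No septic array came near the sham arrays, and the difference was -2.02 ± 0.33 (adjusted p = 0.0569). It passed without Min Dep replicate 2 (-2.16, adjusted p = 0.0496), and over 13 alternative settings the adjusted p ran from 0.0496 to 0.272.

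Subunit c forms the rotating ring, and 3 genes encode the same mature protein with different import sequences. Atp5g1 read 1.11, 1.66 and 1.15 in sham, -1.26, -0.06 and -1.23 in Min Dep and 0.17, -1.09 and -0.45 in Max Dep hearts, a difference of -1.96 ± 0.40 with all septic arrays below sham (adjusted p = 0.0799). Atp5g3 read 1.19, 0.15 and 1.63 in sham, -0.24, 0.07 and -2.27 in Min Dep and -0.66, -0.12 and 0.11 in Max Dep hearts. It also did not overlap, by a narrow margin at sham replicate 2, and the difference was -1.51 ± 0.63 (adjusted p = 0.275). Atp5g2 read -0.42, -0.84 and 0.43 in sham, -0.01, 1.02 and 1.35 in Min Dep and -0.15, -0.50 and -0.76 in Max Dep hearts, so it overlapped (0.43 ± 0.41). Related sequences of the 3 genes can share signal on short probes.

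Atp5pb, subunit b of the stator stalk, read 1.13, 0.51 and 0.67 in sham, -1.48, -0.48 and -0.96 in Min Dep and -0.38, 0.91 and 0.37 in Max Dep hearts. As a mean over 2 probe sets, its Min Dep hearts lay below all sham hearts and its Max Dep hearts did not (-1.10 ± 0.36 over both, adjusted p = 0.186). The probe sets disagreed on Max Dep hearts. A probe set with 0.97, 0.87 and 2.02 in sham read -0.55, -0.24 and 0.09 in Max Dep hearts, below all sham hearts. The other read 1.29, 0.14 and -0.68 in sham and -0.22, 2.05 and 0.66 in Max Dep hearts. The other 12 genes overlapped between septic and sham hearts. Among those of the membrane sector and stalk, Atp5l (subunit g) gave -1.16 ± 0.61, Atp5j (F6) -0.79 ± 0.71, Atp5mpl -0.78 ± 0.64, Atp5k (subunit e) 0.31 ± 0.56, Atp5h (subunit d) 0.36 ± 0.77, Atp5o (OSCP) 0.36 ± 0.54 and Atp5j2 (subunit f) 1.09 ± 0.49. The genes of the catalytic head and its shaft gave -0.34 ± 0.40 for Atp5a1 (alpha), 0.68 ± 0.85 for Atp5b (beta), 0.21 ± 0.33 for Atp5c1 (gamma), 0.05 ± 0.40 for Atp5d (delta) and 0.84 ± 0.60 for Atp5e (epsilon). Of the 17 genes, 3 did not overlap and all 3 were lower after CLP, where 12% of all genes did not overlap and 6.11% were lower without overlap.

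**Figure D4:**
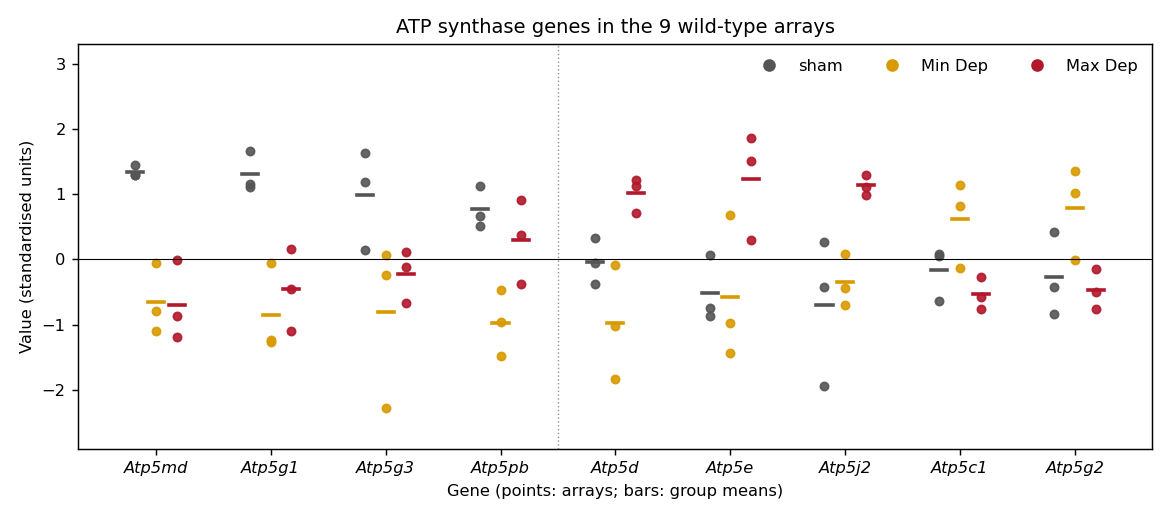
Values of 9 ATP synthase genes in each wild-type array (points) with group means (bars), in standardised units. Left of the dotted line are the 4 genes discussed for septic against sham hearts, led by Atp5md, and on the right 5 genes at an unadjusted p under 0.05 between Max Dep and Min Dep hearts.

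Promoters are shown for the lowest ATP synthase gene and for a subunit c gene that holds a motif of the estrogen-related receptors. Atp5md is at chr19:47090648-47090897 and Atp5g3 at chr2:73911327-73911576, both minus strand, RefSeq GRCm38.p6, 250 bases upstream of the start, 5′ to 3′. Capitals mark an SP1 motif in Atp5md (GGGCGG, -80 to -75) and an ERR motif in Atp5g3 (AAGGTCA on the other strand, -52 to -46). An ETS motif of Atp5md lies 2 to 8 bases after the start, beyond the bases printed.
Atp5md: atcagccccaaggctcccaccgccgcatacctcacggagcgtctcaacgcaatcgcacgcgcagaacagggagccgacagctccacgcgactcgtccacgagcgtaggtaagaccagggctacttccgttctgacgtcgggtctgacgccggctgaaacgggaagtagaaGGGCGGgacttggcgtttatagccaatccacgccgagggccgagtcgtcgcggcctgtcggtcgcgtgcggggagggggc
Atp5g3: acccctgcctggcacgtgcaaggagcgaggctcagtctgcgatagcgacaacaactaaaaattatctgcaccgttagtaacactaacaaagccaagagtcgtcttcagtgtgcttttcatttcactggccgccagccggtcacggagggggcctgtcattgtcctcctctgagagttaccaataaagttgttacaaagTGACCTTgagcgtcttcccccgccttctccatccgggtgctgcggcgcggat

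RefSeq promoters of 250 bases before to 50 after the start were matched by gene identifier for 31 of the 42 genes. Shares are per gene, and a gene counts if any of its promoters holds the motif. Of the 31, 5 belong to complex III, 11 to complex IV and 15 to ATP synthase. Searched on both strands, the NRF1 motif (GC before GCATGCGC) was in 4 of these genes (12.9%) against 1.47% of 17492 genes with a promoter. That core without the first letters, which the longer motif contains, was in 6 (19.4%) against 3.94%. The ETS motif CCGGAAG was in 11 (35.5%) against 12.9%. The YY1 motif AAGATGGC was in 3 (9.68%) against 3.57% and the ERR motif AAGGTCA in 4 (12.9%) against 4.73%, all of them ATP synthase genes. The SP1 motif GGGCGG was in 11 (35.5%) against 49.2%. NRF1 and GABPA, an ETS factor, are textbook activators of respiratory genes, and these shares describe letters in the promoters and not binding in these hearts.

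The mean per gene hides disagreement between probe sets, whose signs differed in 13 of the 22 genes with several, which is 59.1% against 52.1% of all such genes. Tested singly, 2 of 76 member probe sets passed for CLP against sham, where 2.52% of 20380 did: that of Atp5md, and 1 of the 3 of Atp5a1, the alpha subunit. The latter read 1.80, 0.87 and 0.78 in sham, 0.02, 0.04 and -0.41 in Min Dep and -0.96, -1.43 and -1.0 in Max Dep hearts, a difference of -1.77 ± 0.28 (limma, adjusted p = 0.0411 over probe sets). The other 2 Atp5a1 probe sets gave 0.83 and -0.08. In Cox5a, 1 probe set gave -2.0 ± 0.41 (adjusted p = 0.0634 over probe sets) and the other 2 gave 0.22 and 0.02, and the 6 of Cox5b ran from -1.18 to 1.75. Of the member probe sets, 10 in 7 genes carry the suffix _x, whose probes can match other sequences, and 10 in 9 genes the suffix _s, whose probes match more than 1 transcript.

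Other genes of the pathway were counted from lists. Of 26 measured assembly factors of the 3 complexes 18 were lower after CLP, and 1 passed: Atpaf2, which helps assemble the ATP synthase head, fell. Its values were 1.69, 1.25 and 1.17 in sham, -0.88, -0.36 and -0.87 in Min Dep and -1.08, -0.75 and -0.23 in Max Dep hearts, a difference of -2.07 ± 0.24 (adjusted p = 0.0347), with no overlap. The call held without Min Dep replicate 2 (adjusted p = 0.0367) and was lost without any other single wild-type array (0.0702 to 0.131). It was also lost with eBayes (0.0969) and with the 5′ minus 3′ signal of control transcripts, a proxy for RNA integrity, in the model (0.153). None of 32 complex I subunits passed (19 lower, median difference -0.66), where the smallest adjusted p was 0.0543 for Ndufs3 (-1.95 ± 0.31) and for Ndufa13 (2.02 ± 0.30). At an unadjusted p under 0.05, 5 of these subunits were higher and 9 lower. That is 43.8%, against 21.4% of the members and 18.6% of all genes. None of 7 complex II genes passed (6 lower), led by Sdhc (-1.78 ± 0.30, adjusted p = 0.0573). Cycs, the cytochrome c that links complexes III and IV, gave -1.63 ± 0.47 (adjusted p = 0.150), and Atpif1, an inhibitor of ATP synthase, 1.04 ± 0.45 (adjusted p = 0.293); none of the 4 measured genes of their list passed. None of 15 regulators of respiratory gene transcription passed (8 lower, led by Nfe2l2 at -1.97 ± 0.33, adjusted p = 0.0569), nor any of 7 adenine nucleotide and phosphate carriers (5 lower, led by Slc25a4 at 1.11 ± 0.37, adjusted p = 0.198).

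Several cell type marker lists also differed between septic and sham hearts. All 15 macrophage and monocyte genes were higher after CLP, with array means of -1.36 to -0.69 in sham and 0.15 to 1.14 in septic hearts. Of 12 fibroblast genes 11 were lower (0.75 to 0.98 in sham, -1.51 to 0.26 in septic), of 10 smooth muscle and pericyte genes 9 were lower (0.65 to 1.09 and -0.81 to 0.09), and of 15 cardiomyocyte genes 11 were lower (0.23 to 0.30 and -0.68 to 0.41). Of 12 neutrophil genes 10 were higher (-0.94 to -0.55 in sham, -0.08 to 0.87 in septic), and of 8 adipocyte genes 7 were lower (0.05 to 1.24 and -1.06 to 0.01). Of 12 endothelial genes 7 were higher (-0.94 to 0.28 and -0.22 to 0.93), and erythroid, T and natural killer, B cell and mesothelial lists overlapped between sham and septic hearts. As a proxy for RNA integrity, the 5′ minus 3′ signal was averaged over the Gapdh and Actb control probe sets. It is a difference of standardised scores and not a ratio, and the controls differed in sign in some arrays (1.35 and -0.25 in sham replicate 1). This mean signal was 0.39 to 1.76 in sham and -1.85 to 0.53 in septic hearts. The part of these in the members' differences was not tested beyond a fit that includes this signal, in which Uqcrc1 gave -1.75, Uqcrfs1 -2.05, Atp5md -1.89 and Cox6a2 1.82, while Cyc1 gave -1.25, Cox7a1 -0.79, Cox4i1 0.76 and Atp5g3 -1.02. The adjusted p in that fit ran from 0.262 (Atp5g1) to 0.968 (Cox6b1) over the 19 members refitted by name. In whole hearts, fewer cells of a type and less RNA per cell cannot be told apart.

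The Max Dep and Min Dep groups were then each set against the same sham hearts, so the 2 comparisons share those arrays. In Max Dep hearts no member passed (smallest adjusted p 0.0965 for Atp5md; 0.452% of all genes passed), while 4 were higher and 7 lower at an unadjusted p under 0.05, which is 26.2% of members against 16.7% of all genes (8.87% higher, 7.84% lower). In Min Dep hearts no member passed (smallest adjusted p 0.0949 for Atp5md; 0.0565% of all genes), while 1 was higher and 10 lower at an unadjusted p under 0.05, which is 26.2% against 16.4% (7.65% higher, 8.77% lower). With eBayes no member passed in either. Without overlap with sham, 7 members were higher and 9 lower in Max Dep hearts, where 26.4% of all genes did not overlap (13.8% higher, 12.7% lower), and 1 was higher and 12 lower in Min Dep hearts, where 23.4% did not (10.9% and 12.4%). Of the 42, 24 lay below and 18 above 0 in Max Dep hearts (all genes 53.2% and 46.8%), and 27 below and 15 above 0 in Min Dep hearts (all genes 45.5% and 54.5%). The member medians were -0.25 and -0.26, where the medians of all genes were -0.09 and 0.12. The Max Dep median was 0.0025 without Max Dep replicate 3, and the Min Dep median was -0.58 if sham replicate 3 is left out and -0.48 if Min Dep replicate 3 is.

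The 4 core genes of complex III lay below all sham hearts in both groups. Uqcrc1 gave -1.94 ± 0.54 in Max Dep and -1.81 ± 0.54 in Min Dep hearts, and Uqcrfs1 -1.52 ± 0.51 and -2.03 ± 0.51. Atp5md gave -2.04 ± 0.39 and -1.99 ± 0.39, and Atp5g1 -1.76 ± 0.46 and -2.16 ± 0.46. Cox6a2 gave 1.46 ± 0.48 and 1.86 ± 0.48, and without Min Dep replicate 2 the Min Dep value was 2.39 with an adjusted p of 0.0475. At an unadjusted p under 0.05 in Max Dep but not in Min Dep hearts were Atp5j2 (1.83 ± 0.57), Atp5e (1.74 ± 0.69), Cox7a2l (1.54 ± 0.57) and Cox4i2 (-1.87 ± 0.67), and in Min Dep but not in Max Dep hearts Atp5pb (-1.74 ± 0.41), Atp5g3 (-1.80 ± 0.72), Atp5l (-1.74 ± 0.71) and Cox5a (-1.18 ± 0.46). The Atp5pb value is a mean over 2 probe sets, and in Max Dep hearts 1 of them lay below all sham hearts. The Cox5a value is a mean over 3 probe sets, and 1 of them also lay below all sham hearts in Max Dep hearts. That probe set read 0.85, 1.52 and 1.61 in sham and -0.47, -1.03 and -0.37 in Max Dep hearts, and the other 2 overlapped. No member's values differed past the threshold when the groups were set against each other, as given next.

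Set directly against Min Dep hearts, Max Dep hearts had higher values for 26 of the 42 genes and lower for 16, against 46.7% and 53.3% of all genes, and ATP synthase had 12 of 17 higher. No member passed (0% of all genes did, limma), and 6 were higher and 2 lower at an unadjusted p under 0.05, which is 19.0% of members against 9.81% of all genes. The 6 higher and 2 lower stand against 5.21% and 4.6% of all genes. The median difference was 0.45 over members and -0.08 over all genes. It was 0.11 without Min Dep replicate 1 and 0.22 without Max Dep replicate 1, so the size rests on those arrays, and with eBayes no member or other gene passed.

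Atp5d, the delta subunit of the rotor shaft, read 1.13, 1.21 and 0.71 in Max Dep and -0.08, -1.02 and -1.83 in Min Dep hearts, with sham at -0.38, 0.33 and -0.05 between them. These are means over 2 probe sets, both with suffix _s. In 1 the septic groups overlapped, at 0.70, 1.49 and -0.35 in Max Dep and 0.23, -1.44 and -2.24 in Min Dep hearts. In the other they did not overlap, but its sham values (-1.27, 0.11 and -0.55) overlapped those of Min Dep hearts. As a mean, Atp5d did not overlap between the septic groups, and the difference was 1.99 ± 0.46 (adjusted p = 0.356; over 14 alternative settings 0.306 to 0.704). Its partner in the shaft, Atp5e, read 1.85, 1.52 and 0.30 in Max Dep and -0.98, -1.43 and 0.69 in Min Dep hearts, which overlap (1.80 ± 0.69, adjusted p = 0.495). Atp5c1, the gamma subunit of the same shaft, had the other sign. It read -0.75, -0.58 and -0.26 in Max Dep and 1.15, -0.13 and 0.83 in Min Dep hearts (-1.15 ± 0.39, adjusted p = 0.450). Atp5g2 was the other gene lower in Max Dep hearts (-1.26 ± 0.47), and Atp5j2 (1.48 ± 0.57) and Atp5pb (1.27 ± 0.41) were higher without overlap. Of the 2 probe sets of Atp5pb, that with suffix _s did not overlap between the septic groups, and the other did.

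Uqcr10, a small subunit of complex III, read 0.80, 0.17 and 1.08 in Max Dep, 0.07, -1.02 and -1.23 in Min Dep and -0.10, -0.24 and 0.39 in sham hearts. The septic groups did not overlap (1.41 ± 0.43, adjusted p = 0.437), and its probe sets gave 2.48, 2.24 and -0.48. Cox5a, a matrix-side subunit of complex IV, read 0.19, 0.85 and 0.19 in Max Dep, -0.56, -0.30 and -1.49 in Min Dep and 0.19, 1.13 and -0.13 in sham hearts (1.19 ± 0.46, adjusted p = 0.496). Of its 3 probe sets, 1 did not overlap between the septic groups, and the other 2 did. Without overlap, 6 members were higher and 2 lower, against 7.89% and 7.43% of all genes. Complex I subunits were higher in Max Dep hearts in 26 of 32 genes and assembly factors in 22 of 26, and none passed. Macrophage and monocyte genes were higher in 13 of 15, with array means of 0.34 to 1.14 in Max Dep and 0.15 to 0.47 in Min Dep hearts, and B cell genes lower in 7 of 8 (-0.80 to -0.44 and 0.18 to 1.09). Mesothelial genes were higher in 5 of 5 (-0.01 to 1.13 and -1.02 to -0.02) and T and natural killer cell genes lower in 9 of 9 (-0.91 to 0.18 and -0.18 to 0.96), and apart from the B cell and mesothelial lists the array means of each marker list overlapped between the groups. Their part in the members' values was not tested.

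In the knockout table the same genes spread widely between the arrays of a group. The mean over the 42 genes was -0.89, 0.29 and 0.25 in sham replicates 1, 2 and 3 and -0.60 and 0.27 in CLP replicates 2 and 3, in log units of unstated base. Sham replicate 1 was the lowest sham array in 37 of 42 members (88.1%, against 35.1% of all genes) and CLP replicate 2 lay below CLP replicate 3 in 40 (95.2%, against 55.8%). In those arrays the 5′ minus 3′ control signal was -1.97 and -2.06, against 0.21 and 0.98 in the other sham arrays and -0.78 in CLP replicate 3, and its part in the members' values was not tested. In CLP replicate 3 the controls disagreed, at 0.79 for Gapdh and -2.34 for Actb. Other lists leaned the same way. Sham replicate 1 was the lowest sham array in 7 of 7 complex II genes and 20 of 26 assembly factors. It was the lowest in 21 of 32 complex I subunits and 10 of 15 cardiomyocyte genes. In these lists, in that order, CLP replicate 2 lay below CLP replicate 3 in 7, 22, 29 and 13 genes.

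**Figure D5:**
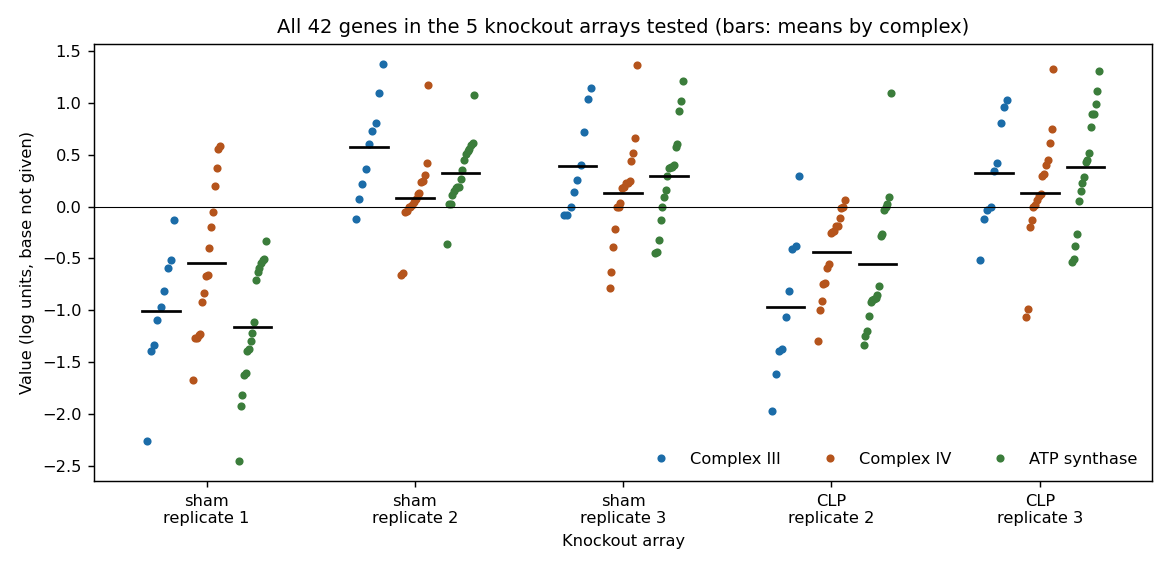
Values of all 42 genes in the 5 knockout arrays tested, in log units of unstated base, coloured by complex (points: genes; bars: mean by complex). Sham replicate 1 and CLP replicate 2 lie low in each complex, with member means of -0.89 and -0.60, and the other 3 arrays have means from 0.25 to 0.29.

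The knockout comparison asked how CLP hearts differed from sham hearts when Nos2 carries the targeted allele. No member passed (limma with eBayes, 2 CLP and 3 sham arrays), nor did any gene (0% of all genes), and 1 member was at an unadjusted p under 0.05, which is 2.38% against 11.9% of all genes (5.83% higher, 6.08% lower). Without eBayes moderation no member passed either. The median difference was -0.02 over members and 0.03 over all genes, and it ran from -0.42 without sham replicate 1 to 0.32 without CLP replicate 2, so these data set no direction for the members as a group. Of the 42, 22 lay below and 20 above 0 (all genes 48.5% and 51.5%). By complex the median was -0.30 for complex III, -0.02 for complex IV and 0.32 for ATP synthase, and leaving out 1 array turned the sign of each complex III and ATP synthase median.

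The member with the smallest p was Cox6a1, which read -0.05, 0.13 and 1.37 in sham and -1.29 and -1.06 in CLP hearts. Both CLP arrays lay below all sham arrays, at -1.66 ± 0.56 (adjusted p = 0.309; 0.124 to 0.642 over 9 alternative settings), and the difference was -1.84 without sham replicate 2. Atp5e, lowest in sham replicate 1, read -1.40, 0.15 and -0.33 in sham and 1.10 and 0.52 in CLP hearts (1.33 ± 0.58, adjusted p = 0.447). Uqcrb read -0.52, 0.36 and 0.40 in sham and -1.38 and -0.52 in CLP hearts, with CLP replicate 3 at the level of the lowest sham array (-1.03 ± 0.52, adjusted p = 0.519). Of its 2 probe sets, 1 did not overlap, with 0.55, 0 and 0.12 in sham and -2.18 and -1.70 in CLP hearts. The other overlapped, with -1.58, 0.73 and 0.68 in sham and -0.57 and 0.66 in CLP hearts. Without overlap 3 members were higher and 3 lower, where 28.9% of all genes did not overlap (15% higher, 14% lower). Among the lower ones was Cox4i2, at 0.20, 0.00 and 0.66 in sham and -0.55 and -0.99 in CLP hearts (-1.06 ± 0.44, adjusted p = 0.422).

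The genes that led in wild-type hearts were less clear here. Uqcrc1 read -1.09, 0.60 and 1.15 in sham and -1.62 and 0 in CLP hearts (-1.03 ± 0.82), and Uqcrfs1 -2.26, 1.38 and 0.72 and -1.97 and 1.03 (-0.42 ± 1.31). In both, the low arrays were sham replicate 1 and CLP replicate 2 and the groups overlapped. The sign of the septic difference was the same in both tables for 31 of 42 members (73.8%) and for 55.1% of all genes, over arrays that are not shared, and for 8 of 9 complex III, 12 of 16 complex IV and 11 of 17 ATP synthase genes. Without knockout CLP replicate 2 it was the same for 21 of 42 members (50%, against 53.1% of all genes) and 3 of 9 complex III genes, and without knockout sham replicate 2 for 25 members and 5 of 9 complex III genes. Over the other single arrays left out, it was the same for 28 to 34 members. Whether the response differs between genotypes was not tested, since each genotype has its own table and array model. Genotype, array model and any difference in sex cannot be told apart. Macrophage and monocyte genes were higher after CLP in 14 of 15 (array means -0.62 to 0.03 in sham, 1.96 and 2.60 in CLP), neutrophil genes higher in 11 of 12 (-0.46 to -0.10 and 1.32 to 2.48) and endothelial genes lower in 11 of 12 (0.45 to 1.64 and -2.40 to -0.44). Smooth muscle and pericyte genes were lower in 9 of 10 (0.43 to 1.11 and -1.19 to -0.81), fibroblast genes in 10 of 12 (0.23 to 1.00 and -1.30 to -0.25), adipocyte genes in 4 of 8 (0.01 to 1.07 and -1.53 to -0.44) and erythroid genes in 3 of 4 (-0.13 to 0.41 and -0.40 to -0.20). Cardiomyocyte genes were lower in 9 of 15 with overlapping array means (-0.05 to 0.59 and -1.30 to 0.61), and the T and natural killer, B cell and mesothelial means overlapped too. Their part in the members' values was not tested.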

How the data were processed

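Total RNA from 15 whole mouse hearts was labelled and hybridised to arrays, per the labels' protocols, with scanning and summarising tools not given in the sources used here. As deposited by the authors, the data are 2 tables of 22690 probe sets. The deposited wild-type scores are standardised: after a linear step per array is undone, every probe set has mean 0 and SD 1 over the 9 arrays. The deposited knockout scores are centred per probe set and run from -7.78 to 8.18, with no stated log base. Neither table holds levels or detection calls.

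The platform annotation pairs 20380 probe sets with 1 gene, 691 with several and 1555 with none, and 64 are controls. Probe sets of a gene were averaged, which left 12393 genes. Differences were fitted across all genes with limma 3.58.1 in R 4.3.3, with Benjamini-Hochberg adjustment at 0.05 and no filter. The wild-type fit used all 9 arrays and unmoderated statistics with 6 residual degrees of freedom and the knockout fit used eBayes on 5 arrays. The fits were tested on simulated data.

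Members and gene lists were chosen with earlier results of these data known. Values in every array are given for any member past the threshold, for the 3 members per complex with the smallest p for CLP against sham, for the 1 with the smallest p per complex for Max Dep against Min Dep and for knockout CLP against sham, and for the isoform and subunit c genes. Other members are given by their differences or ranges, and array values of Cyc1, Atp5c1 and 1 Atp5a1 probe set were added after their values were seen. Alternatives were single arrays left out, every probe set tested, arrays centred, the array step undone, other moderation, a control signal in the model, only the groups compared, and other treatments of knockout CLP replicate 1. The treatment that recovers that replicate and the signs with single arrays left out were chosen after seeing the data.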

Additional observations from a re-analysis of the deposited data

Results flagged for a closer look

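Among the 6 septic wild-type hearts, a single array stood far from the other 5 in 4 genes, by the gap to its nearest neighbour relative to the whole range. Atp5g3, a subunit c gene, was at -2.27 in Min Dep replicate 3. Atp5j, subunit F6 of the stalk, was at -2.43 in Min Dep replicate 1. Uqcrh, the complex III hinge protein, was at -1.69 in Min Dep replicate 2, and Uqcrq, a small complex III subunit, was at -1.39 in Max Dep replicate 3. These are 4 of 42 members (9.52%), where 8.79% of all genes had such an array, so the share is near that of all genes. The 4 values come from 4 different arrays.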

How the results depend on the processing

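No paired analysis was possible because the labels carry no replicate numbers, and those used here follow accession order. No member passed with arrays centred, with eBayes, with the array step undone or with the control signal in the model. With every probe set tested, 2 of 76 member probe sets passed for CLP against sham (2.52% of all probe sets passed) and 1 for Max Dep against sham (1.08%), and the CLP median was -0.088. With the array step undone the median was -0.24 for CLP, -0.074 for Min Dep against sham and 0.26 for Max Dep against Min Dep, while that of all genes went from 0.12 to 0.27 for Min Dep against sham and from -0.08 to -0.28 for Max Dep against Min Dep. With the control signal in the model it was -0.033 for Max Dep and -0.44 for Min Dep against sham, and 0.38 between them. The cause was not tested. With single arrays left out, the members past the threshold were 0 to 2 for CLP, 0 to 1 for Min Dep against sham and 0 in the other 3 comparisons, and those above 0 came without Min Dep replicate 2. The median ran from -0.37 to -0.11 for CLP, -0.35 to 0.0025 for Max Dep and -0.58 to -0.22 for Min Dep against sham, 0.11 to 0.45 between them and -0.42 to 0.32 in knockout hearts. The CLP difference of Cox6b1 ran from -0.44 to 0.077, with 0.015 without sham replicate 2, and that of Cox6b2 from -0.71 to 0.023. Knockout calls stayed at 0 members with CLP replicate 1 kept (295 genes passed) or recovered (19 genes). The small number of arrays limits what could pass, and with no detection calls it is unknown which members lie near background.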

Other observations

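Over the 9 wild-type arrays the mean pairwise correlation between genes, given as a description over arrays that share groups, was 0.19 within complex III, 0.00 within complex IV and 0.08 within ATP synthase, and 0.00 over all genes. With group means removed it was 0.05 within complex III, 0.04 within complex IV and 0.06 within ATP synthase. In knockout hearts, 21 of 26 assembly factors of the 3 complexes were higher after CLP and none passed (limma, eBayes), where 18 of 26 were lower in wild-type hearts. Those tables share no array, and the difference was not tested.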
